A study of Mus musculus with 9 samples.

Results

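The 9 genes Vwf, Pf4, Itga2b, Gp1ba, Gp5, Gp9, Klf1, Slc4a1 and Ppbp encode proteins of platelets and red cells, and 1 of them, Klf1, encodes the transcription factor that drives the red cell program. They were taken by name out of 21900 protein-coding genes of mouse build mm10 (GRCm38.p6) and looked up in maps of H3K27me3. Each gene was read over its span with 5 kb on either side, called the extended span here. The genes were selected on the H3K27me3 intervals and summit heights of these same libraries, so the values below are a description and no test was made on them.

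The maps came from bone marrow cells enriched with beads for the absence of lineage markers and the presence of c-Kit, a mixed population of stem and progenitor cells that was fixed in formaldehyde without culture. The cells came from female C57BL/6 mice that had been transplanted and then given metformin (MET) or vehicle (VEH) for 1 month. The RH groups carried a heterozygous floxed R878H allele of Dnmt3a, a DNA methyltransferase gene (Dnmt3afl-R878H/+), and the WT groups were Dnmt3a+/+, both crossed to Mx1-cre. There were 4 groups, RH MET, RH VEH, WT MET and WT VEH, with 2 libraries each, and 1 input library of which no interval list was analysed here. All 4 groups carried the Cre transgene, whose Mx1 promoter responds to interferon and is active in many tissues besides blood. The ages of the mice, the induction of the Cre and the share of host cells left after transplantation are not stated in the labels. Nothing in the labels ties the 2 replicate libraries of a group to separate animals, and the spread between them may be technical.

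H3K27me3 is the trimethyl mark that Polycomb repressive complex 2 sets on histone H3 at genes that are held silent. In stem and progenitor cells it lies over many genes of other fates. Many genes of the red cell and platelet lineages are transcribed mainly once a cell has entered those lineages. Whether the genes described here were transcribed in the cells mapped was not measured in these data. The proteins meet on the platelet surface: von Willebrand factor is bound by the GPIb-IX-V complex, of which Gp1ba, Gp1bb, Gp5 and Gp9 encode subunits, and fibrinogen is bound by the integrin whose alpha and beta chains are encoded by Itga2b and Itgb3. Pf4 and Ppbp encode chemokines stored in platelet alpha granules, and Slc4a1 encodes band 3, the anion exchanger of the red cell membrane. In a mixed population, fewer marked cells and less mark per cell cannot be told apart.

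Because the genes of 1 receptor complex differed in their mark, the promoter sequences of 2 of its subunits are shown first. Those of the integrin chain gene Itga2b and of the erythroid factor gene Klf1 are shown as well. The mark at Itga2b ended short of the gene start, and none was called over the span of Klf1 in any library. Each printed sequence is the stretch of 250 bases just upstream of the transcription start in RefSeq (GRCm38.p6), written 5′ to 3′ on the strand of the gene. The windows are chr16:30310782-30311031 on the minus strand for Gp5, chr11:70638872-70639121 on the plus strand for Gp1ba, chr11:102469884-102470133 on the minus strand for Itga2b and chr8:84901732-84901981 on the plus strand for Klf1. Capitals mark matches to the GATA letters AGATAA, or else AGATAG, or else TGATAA, or else TGATAG, and to the Ets letters AGGAAG, on either strand, with no overlap between the matches.
Gp5: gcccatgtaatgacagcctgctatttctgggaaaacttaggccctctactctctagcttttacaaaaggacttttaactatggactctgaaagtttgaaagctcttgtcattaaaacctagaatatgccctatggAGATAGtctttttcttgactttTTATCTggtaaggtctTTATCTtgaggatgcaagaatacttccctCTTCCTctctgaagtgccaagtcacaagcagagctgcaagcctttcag
Gp1ba: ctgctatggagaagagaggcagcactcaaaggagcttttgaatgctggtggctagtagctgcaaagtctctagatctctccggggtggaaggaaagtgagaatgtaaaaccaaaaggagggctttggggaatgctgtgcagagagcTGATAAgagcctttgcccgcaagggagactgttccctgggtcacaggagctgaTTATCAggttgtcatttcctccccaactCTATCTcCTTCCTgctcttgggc
Itga2b: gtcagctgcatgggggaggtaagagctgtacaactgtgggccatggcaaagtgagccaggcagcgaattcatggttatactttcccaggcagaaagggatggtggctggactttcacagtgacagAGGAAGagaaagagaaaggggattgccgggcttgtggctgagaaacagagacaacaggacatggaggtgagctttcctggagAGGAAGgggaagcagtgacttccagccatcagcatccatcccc
Klf1: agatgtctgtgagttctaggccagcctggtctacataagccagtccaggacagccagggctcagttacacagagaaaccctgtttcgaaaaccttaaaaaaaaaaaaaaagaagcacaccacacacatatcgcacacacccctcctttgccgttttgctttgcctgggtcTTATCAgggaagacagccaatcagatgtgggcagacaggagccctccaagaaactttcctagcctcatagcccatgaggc

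Over the extended spans the 9 genes fell into 3 kinds. An interval is a stretch that the authors called as enriched in a library, and a gene counts as called in a library if at least 1 bp of its extended span lies under one. Slc4a1, Itga2b and Gp5 were called in all 8 libraries, Vwf in 5 and Klf1 in 1, and Gp1ba, Gp9, Pf4 and Ppbp in none. The share of all 21900 protein-coding genes was 29.8% for a call in every library, 47.4% for a call in any and 52.6% for no call, and nothing is read from the members' 3, 5 and 4 of 9 against these shares, since the genes were chosen with the maps known. Per library 5 of the 9 genes were called in RH MET 2, 4 in RH MET 1, WT MET 1, WT MET 2 and WT VEH 2, and 3 in RH VEH 1, RH VEH 2 and WT VEH 1.

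**Figure D1:**
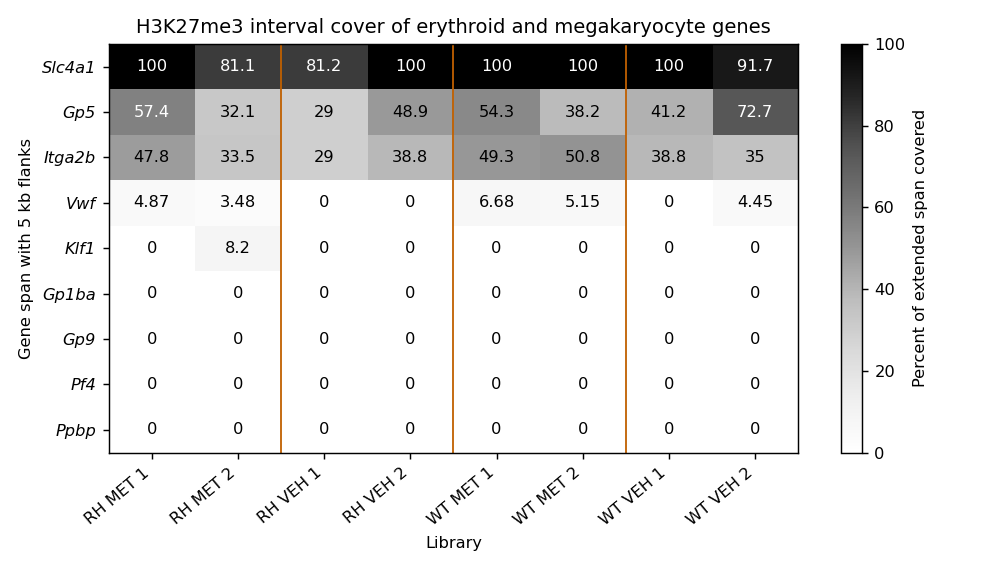
Percent of each extended gene span (rows, gene with 5 kb on either side) that lay under H3K27me3 intervals, for each of the 8 libraries (columns, 2 per group). Slc4a1 was covered over 81.1% or more in every library, Gp5 and Itga2b over 29.0% to 72.7%, Vwf over at most 6.68%, and the 4 lowest rows are at 0 throughout.

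The libraries differed in how many intervals they held. The lists ran from 11620 intervals in RH VEH 1 to 16879 in RH MET 1 and their covered length from 80.0 Mb (RH VEH 1) to 186 Mb (WT MET 2). RH VEH 1 stood apart with the shortest list, the least covered length and a median summit height of 12, against 14 to 17 in the other libraries. The summit height is the authors' own score of each interval, deposited without a unit and possibly not comparable between libraries, so it is also given as its percentile among all summits of the same library. Read numbers per library are unknown, and a place with no interval can still carry mark that the caller did not pick up.

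Other cell types were looked at by the same calls, which show the mark and not the makeup of the sample. Kit itself, the gene by which the cells were enriched, was covered over 2.18% and 0% of its extended span in RH MET, 0% in both RH VEH libraries, 6.10% and 9.16% in WT MET, and 7.63% and 8.94% in WT VEH. Its calls thus split RH VEH from WT VEH. The same split was found for 2.36% of the 9447 protein-coding genes called in any RH VEH or WT VEH library. The reverse was found for 0.455%. Nothing is read from the split at Kit, since the marker genes were added with their values seen. The part of genotype or of differences between libraries in it was not tested. Of 10 progenitor markers 5 to 8 were called per library, with Gata2, Gfi1, Cebpa and Tal1 in all 8 and Lmo2 in none. Of 10 stromal and endothelial markers 6 to 7 were called per library. Among these, 6 were called in all 8, Cxcl12 and Col1a1 included, and 3 in none, which were Cdh5, Pecam1 and Col3a1. Of 10 markers of mature lymphoid and myeloid cells 2 to 3 were called per library, with Cd3e and Cd4 in all 8 and 7 in none. The part of other cell types in the values below was not tested.

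Among the 3 receptor subunits of the 9 genes, Gp5 was the one whose gene body lay under the mark in every library. Gp5 encodes glycoprotein V and spans chr16:30307685-30310781. Its extended span was covered over 57.4% in RH MET 1 and 32.1% in RH MET 2, 29.0% in RH VEH 1 and 48.9% in RH VEH 2, 54.3% in WT MET 1 and 38.2% in WT MET 2, as well as 41.2% in WT VEH 1 and 72.7% in WT VEH 2. The 4 groups overlapped. The gene span without flanks was covered over 100% in 7 libraries and over 87.7% in RH MET 2, where the interval stopped short of the transcription start.

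The tallest summit lay inside Gp5 in all 8 libraries, 0.763 to 2.17 kb from the lower-coordinate end. The interval that held it was 3.8 to 6.4 kb wide in 7 libraries and 14.0 kb in WT VEH 2, where it extended below the gene. The region merged over the libraries, chr16:30296601-30312200, is 15.6 kb long and overlaps no other gene, although Atp13a3 lies 1.64 kb above Gp5. RH MET 1 and WT MET 1 each had a second, low interval in the lower flank, with summit heights of 10 and 11.

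The tallest summit at Gp5 ranked lowest in the RH VEH libraries. Its height was 45 in RH MET 1 and 32 in RH MET 2, 16 in RH VEH 1 and 24 in RH VEH 2, 39 in WT MET 1 and 44 in WT MET 2, as well as 33 in WT VEH 1 and 42 in WT VEH 2. As percentiles within each library these are 84.6 and 77.3 in RH MET, 65.5 and 71.5 in RH VEH, 81.2 and 81.5 in WT MET, and 79.6 and 84.1 in WT VEH. The means were 80.9 ± 5.17 in RH MET, 68.5 ± 4.19 in RH VEH, 81.4 ± 0.26 in WT MET and 81.9 ± 3.22 in WT VEH (SD, n = 2 each). The RH VEH values lay below those of all other groups, and RH VEH 2 by itself was also below every library of these groups. Of 6537 genes called in all 8 libraries, 26.5% ranked lower in both RH VEH than in both WT VEH libraries and 5.66% higher. Against RH MET, 45.2% ranked lower in both RH VEH libraries and 3.49% higher. The part of differences between libraries in this rank was not tested.

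Gp1ba and Gp9 carried no interval in any library. Gp1ba, at chr11:70639102-70643986, encodes glycoprotein Ib alpha, the chain that holds the binding site for von Willebrand factor. The nearest intervals lay 91.9 to 96.9 kb below it, next to Pld2, and 49.4 to 85.6 kb above it, so that its neighbours Slc25a11, 32 bp away, and Rnf167 were free of intervals as well. Gp9, at chr6:87776131-87779786, encodes glycoprotein IX. The nearest intervals lay 35.9 to 39.7 kb below it over Efcc1, with summit heights of 33 to 97, and 198 to 199 kb above it.

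Gp1bb, the subunit that is not among the 9 genes, was covered over 100% of its extended span in all 8 libraries, with summit heights of 35 to 97. Its span overlaps Septin5, so both genes share these intervals, and the tallest summit lay in Gp1bb. Within the receptor complex the genes were therefore split, with Gp5 and Gp1bb called in 8 of 8 libraries and Gp1ba and Gp9 in 0 of 8. None of the 4 changed its call between libraries.

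**Figure D2:**
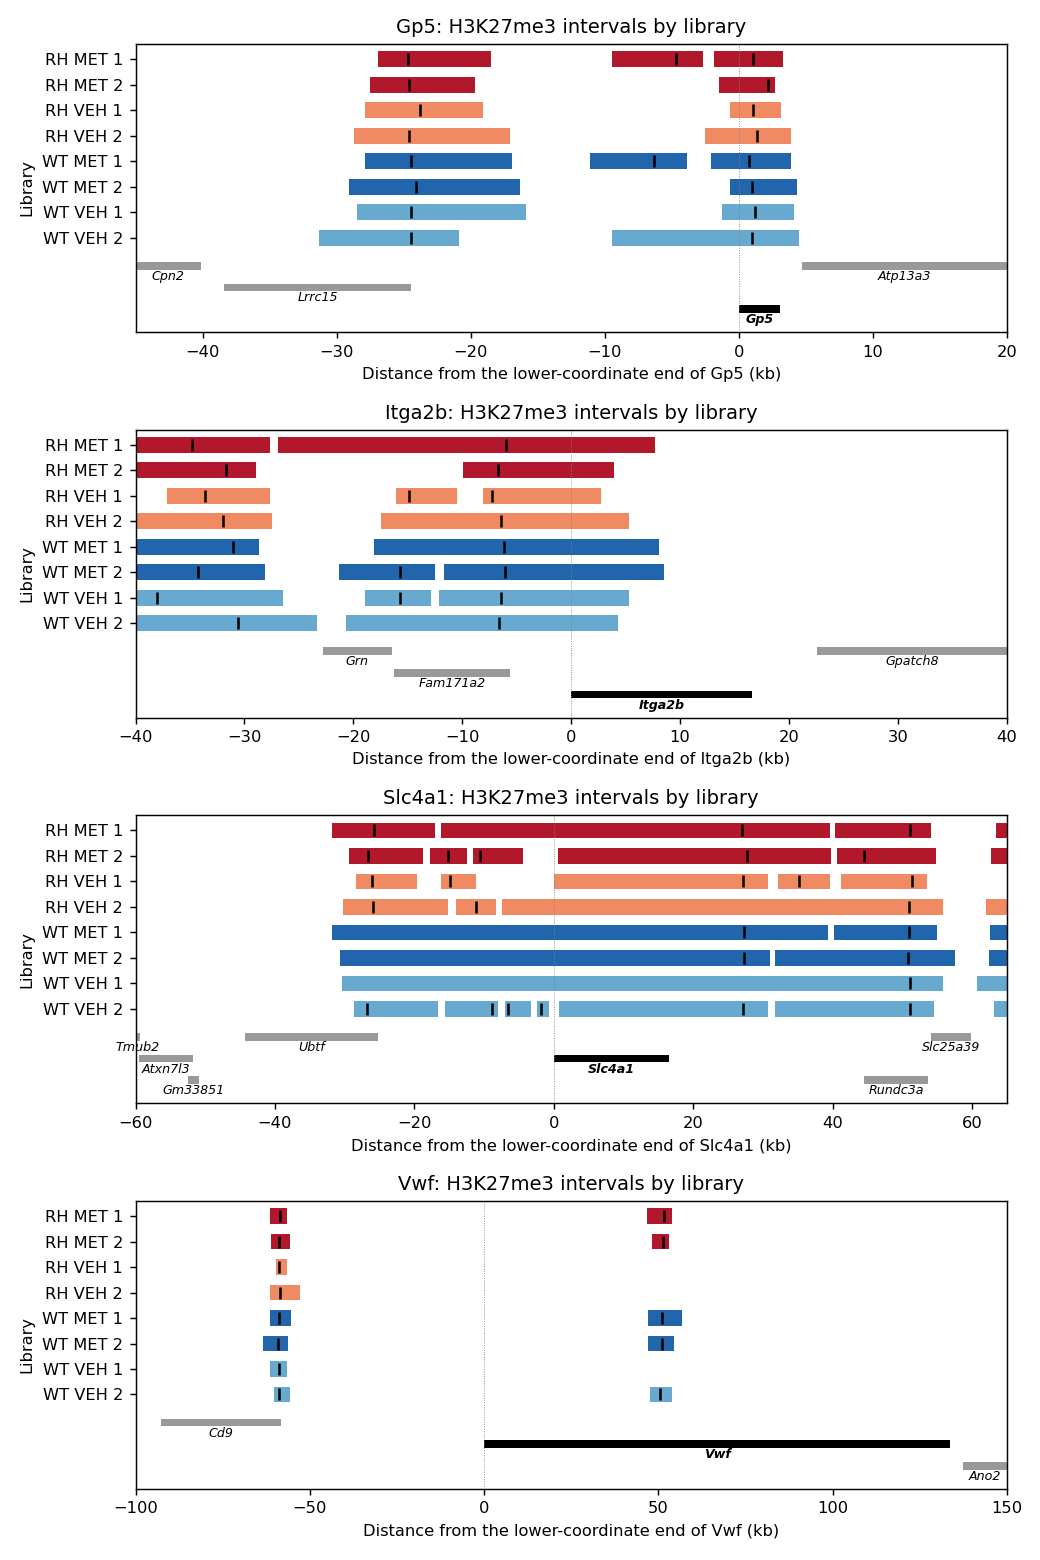
H3K27me3 intervals (coloured bars, black ticks for summits) in each of the 8 libraries around Gp5, Itga2b, Slc4a1 and Vwf, with gene spans below as grey bars and the named gene in black, on a horizontal axis of distance in kb from the lower-coordinate end of the gene. The summit sits in Gp5, below Itga2b over Fam171a2, above Slc4a1, and 50.6 to 51.6 kb inside Vwf in the 5 libraries with an interval there.

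Itga2b, which encodes the integrin alpha IIb chain, bore the mark on its downstream side and not at its start. It spans chr11:102453297-102469883 on the minus strand. The extended span was covered over 47.8% in RH MET 1 and 33.5% in RH MET 2, 29.0% in RH VEH 1 and 38.8% in RH VEH 2, 49.3% in WT MET 1 and 50.8% in WT MET 2, as well as 38.8% in WT VEH 1 and 35.0% in WT VEH 2. The WT MET libraries were the highest, and the other groups overlapped.

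In each library the interval at Itga2b ended inside the gene. Its upper end lay 8.08 kb (WT MET 2) to 13.9 kb (RH VEH 1) short of the transcription start, which was uncovered in all 8 libraries. The tallest summit lay outside Itga2b, 6.00 to 7.25 kb beyond its lower-coordinate end, in the neighbouring gene Fam171a2. The merged region, chr11:102409601-102461800, is 52.2 kb long and overlaps Fam171a2 and Grn as well.

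The summit counted for Itga2b, which lay in Fam171a2, was among the tallest of its library. Heights were 92 and 62 in RH MET, 36 and 51 in RH VEH, 85 and 85 in WT MET, and 66 and 78 in WT VEH. As percentiles these are 97.9 and 93.1 in RH MET, 93.6 and 92.6 in RH VEH, 96.8 and 94.9 in WT MET, and 97.2 and 96.5 in WT VEH. The 8 percentiles were at least 92.6.

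The partner chain gene Itgb3, which encodes integrin beta 3, was also called in all 8 libraries. Between 8.28% and 28.7% of its extended span was covered, with summit heights of 12 to 33 and the tallest summit inside the gene in 6 of the 8. Both genes of the fibrinogen receptor thus had a call in every library, over a part of each.

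Vwf, the gene of von Willebrand factor, is the longest of the 9 and was marked at 1 place far inside it. It spans 133732 bp, chr6:125552948-125686679. Its extended span was covered over 4.87% in RH MET 1 and 3.48% in RH MET 2, 6.68% in WT MET 1 and 5.15% in WT MET 2. WT VEH 2 had 4.45%, and RH VEH 1, RH VEH 2 and WT VEH 1 had 0%. Every metformin library was above every RH VEH library, while WT VEH held 1 library of each kind.

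The intervals in Vwf lay at the same position in the 5 libraries that had them. Their summits fell 50.6 to 51.6 kb from the lower-coordinate end, within 0.976 kb of each other and 37.8% to 38.6% along the span. They were 5.0 to 9.6 kb wide, and the merged region, chr6:125599801-125609600, lies 46.9 kb from the lower and 77.1 kb from the upper end of Vwf and overlaps no other gene. The libraries without a call had no interval closer than 52.9 kb below the gene, over Cd9, or 69.3 kb above it.

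The Vwf summits were of middle rank. Heights were 15 and 15 in RH MET, 17 and 23 in WT MET and 17 in WT VEH 2. Their percentiles were 51.3 and 49.1 in RH MET, 56.2 and 65.9 in WT MET and 58.5 in WT VEH 2. In each of these libraries they were below those of Itga2b, Gp5 and Slc4a1, of which Itga2b and Slc4a1 had summits outside the gene. Cd9, a tetraspanin gene of platelets that the nearest interval below Vwf overlapped, was called in all 8 libraries with heights of 14 to 34. Vwf is also an endothelial gene. Of the 10 stromal and endothelial markers, 7 and 6 were called in RH MET, 6 and 7 in RH VEH, 7 and 7 in WT MET and 6 and 6 in WT VEH. Of the endothelial genes, Kdr and Esam were called in all 8 libraries, Pecam1 and Cdh5 in none, and Tek in RH MET 1, RH VEH 2 and both WT MET libraries. Their part in the call at Vwf was not tested.

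**Figure D3:**
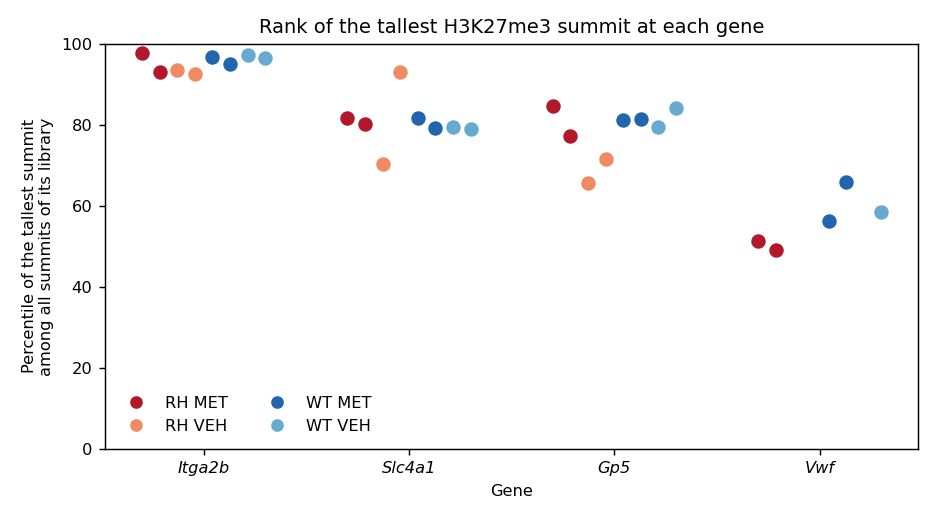
Percentile of the tallest summit at Itga2b, Slc4a1, Gp5 and Vwf among all summits of the same library (vertical axis), with 1 point per library, coloured by group. Itga2b lay at 92.6 or above in all 8 libraries, Gp5 was lowest in RH VEH at 65.5 and 71.5, and Vwf has points in 5 libraries only, from 49.1 to 65.9. The summits counted for Itga2b and Slc4a1 lay outside those genes.

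The alpha-granule chemokine genes Pf4 and Ppbp were free of intervals beside a marked chemokine gene. Ppbp (chr5:90768518-90770063), which encodes CXCL7, and Pf4 (chr5:90772435-90773383), which encodes CXCL4, lie 2.37 kb apart. Cxcl5, a neutrophil-attracting chemokine gene, lay under an interval below them in all 8 libraries, with summit heights of 18 to 42. The gap between this interval and Ppbp was 5.72 kb in WT VEH 1 and 7.72 to 8.32 kb in the other 7 libraries. From Pf4 the same gap was 9.64 kb in WT VEH 1 and 11.6 to 12.2 kb in the others. With flanks of 10 kb in place of 5 kb, Ppbp was called in all 8 libraries and Pf4 in WT VEH 1.

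Klf1, the erythroid transcription factor gene, lay just outside a marked region. It spans chr8:84901982-84905291 on the plus strand. The nearest interval above began 5.31 kb away in RH MET 1 and 3.91 kb in RH MET 2, 6.31 kb in both RH VEH libraries, 6.71 kb in WT MET 1 and 10.3 kb in WT MET 2, as well as 6.71 kb in WT VEH 1 and 21.9 kb in WT VEH 2. RH MET 2 was therefore the 1 library whose interval reached into the 5 kb flank, where it covered 8.20% of the extended span, and the interval of RH MET 1 began just outside the flank.

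The interval that gave this call lay over neighbouring genes. In RH MET 2 it had a height of 19 and its summit lay in Mast1, a microtubule-associated kinase gene, 11.2 kb from the lower end of Klf1. The merged region, chr8:84909201-84957800, is 48.6 kb long and overlaps Dnase2a, Mast1, Rnaseh2a and Rtbdn, and no interval overlapped the span of Klf1 in any library.

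Slc4a1 was the most widely covered of the 9 genes. It spans chr11:102348820-102365281. The extended span was covered over 100% in RH MET 1 and 81.1% in RH MET 2, 81.2% in RH VEH 1 and 100% in RH VEH 2, 100% in both WT MET libraries, and 100% in WT VEH 1 and 91.7% in WT VEH 2. In every library it exceeded Gp5 and Itga2b on this scale, which is per length, while Gp5 and Itga2b changed places between libraries. The order of those 2 genes was not stable and their group means did not differ beyond the spread, with 44.7% ± 17.9 for Gp5 and 40.6% ± 10.1 for Itga2b in RH MET (SD, n = 2).

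The mark at Slc4a1 was part of a broad block. The interval with the tallest summit was 30.0 to 86.2 kb wide, wider than 97.1% or more of the intervals of its library, and the merged region, chr11:102317001-102406400, is 89.4 kb long. It overlaps Ubtf, Rundc3a and Slc25a39 as well as Slc4a1. The tallest summit of the intervals reaching the extended span lay outside Slc4a1 in each library, at most 27.7 kb above its lower end, between Slc4a1 and Rundc3a, in 6 libraries and about 51.0 kb above it, in Rundc3a, in RH VEH 2 and WT VEH 1.

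The tallest summits of the intervals that reached the extended span of Slc4a1 were 39 and 36 in RH MET, 18 and 52 in RH VEH, 40 and 40 in WT MET, and 33 and 34 in WT VEH. In RH VEH 2 and WT VEH 1 that interval ran on over Rundc3a, which other libraries held under an interval of its own. Over the whole merged region the tallest summits were 59 and 37 in RH MET, 28 and 52 in RH VEH, 49 and 64 in WT MET, and 33 and 48 in WT VEH, and no group stood apart from all others. Slc4a1 and Itga2b lie on the same chromosome with their spans 88.0 kb apart, and their merged regions are separated by 3.2 kb. Both genes thus lay in neighbouring blocks, and neither had its tallest summit within the gene.

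Metformin was compared with vehicle in RH cells first, since the call at Vwf differs there. Vwf was covered over 4.17% ± 0.984 in RH MET and 0% in RH VEH (SD, n = 2 each), a difference of 4.17 percentage points with a standard error of 0.696. That standard error holds the spread of RH MET alone, since both RH VEH libraries were at 0% for want of an interval. Cover was higher in both RH MET libraries for 13.6% of 9526 genes and lower for 4.38%. It was the 1 gene of the 5 callable members that had an interval in each RH MET library and no RH VEH library, against 2.76% of the 9526 protein-coding genes called in at least 1 of these 4 libraries, and 0 members went the other way, against 0.472%. Nothing is read from these shares, because Vwf was chosen with this call known. The other called genes overlapped between RH MET and RH VEH in percent covered, with differences of 6.77 points (standard error 8.66) for Itga2b and 5.79 points (16.1) for Gp5. Of the 3 members called in all 8 libraries, Gp5 had a higher summit percentile in both RH MET than in both RH VEH libraries, by 12.4 points (standard error 4.70), against 45.2% of 6537 genes, and 0 had a lower one, against 3.49%.

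In WT cells the call at Vwf did not separate metformin from vehicle. The percent covered was 5.91% ± 1.08 in WT MET and 2.23% ± 3.15 in WT VEH, a difference of 3.69 points with a standard error of 2.35. Both WT MET values, 6.68% and 5.15%, were above the 4.45% of WT VEH 2, but that library carried the interval. Between these groups 0 of the 4 callable members separated in either direction, against 2.27% of 9982 genes called in each WT MET library and no WT VEH library and 0.391% the reverse. Itga2b was covered over 50.0% ± 1.06 in WT MET and 36.9% ± 2.66 in WT VEH, without overlap, a difference of 13.2 points with a standard error of 2.03. The cover of 18.6% of these 9982 genes was likewise higher in both WT MET libraries, and of 7.82% lower. The summit percentiles of Itga2b overlapped, and none of the 3 members called in all 8 libraries had percentiles that separated WT MET from WT VEH, against 32.4% of 6537 genes that were higher in WT MET and 3.93% that were lower.

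The RH and WT cells were compared under each treatment. Under vehicle 0 of 4 callable members separated the groups by their calls, against 0.455% of 9447 genes called in each RH VEH library and no WT VEH library and 2.36% the reverse. The summit percentiles of Gp5 and Itga2b were lower in both RH VEH than in both WT VEH libraries, with differences of -13.4 points (standard error 3.74) for Gp5 and -3.8 points (0.579) for Itga2b, against 26.5% of 6537 genes, and 0 members were higher, against 5.66%. In deposited heights, Gp5 averaged 20.0 ± 5.66 in RH VEH and 37.5 ± 6.36 in WT VEH, and Itga2b averaged 43.5 ± 10.6 in RH VEH and 72.0 ± 8.49 in WT VEH (SD, n = 2 each). The summit counted for Itga2b lay in the neighbouring gene Fam171a2, outside the extended span of Itga2b. The interval lists of RH VEH were also short, with 11620 and 13339 intervals, against 12009 and 16259 in WT VEH. The comparison with RH MET above uses the same RH VEH libraries.

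Under metformin the RH and WT cells had the same members called but for Klf1, which was called in RH MET 2. By calls 0 of 5 members separated the groups, against 0.786% of 10045 genes called in each RH MET library and no WT MET library and 2.25% the reverse. Vwf was covered over less of its span in RH MET than in WT MET, with 4.17% ± 0.984 in RH MET and 5.91% ± 1.08 in WT MET and no overlap, a difference of -1.74 points with a standard error of 1.03. Itga2b averaged 40.6% ± 10.1 in RH MET and 50.0% ± 1.06 in WT MET, and the RH MET libraries, at 47.8% and 33.5%, lay below the WT MET libraries, at 49.3% and 50.8%. Such lower cover in both RH MET libraries was found for 29.3% of the 10045 genes, and higher cover for 4.89%. None of the 3 members called in all 8 libraries separated these groups by summit percentile, against 12.3% of genes that were higher in RH MET and 24.2% that were lower.

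The call at Vwf moved with the length of the interval lists. The 5 libraries that called it held the most intervals, 15257 to 16879, and the 3 that did not held the fewest, 11620 to 13339. When each list was held to its 11620 tallest intervals, the same 5 libraries called Vwf, with the same cover. That cut fell at heights of 11 to 14 in these libraries, below their Vwf summits of 15 to 23, and it cannot add a call to a short list. A minimum height of 15 for all libraries likewise could not remove any of the 5 calls. A minimum of 20 left WT MET 2 alone. The part of depth or enrichment per library in this call was not tested, since read numbers are unknown.

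**Figure D4:**
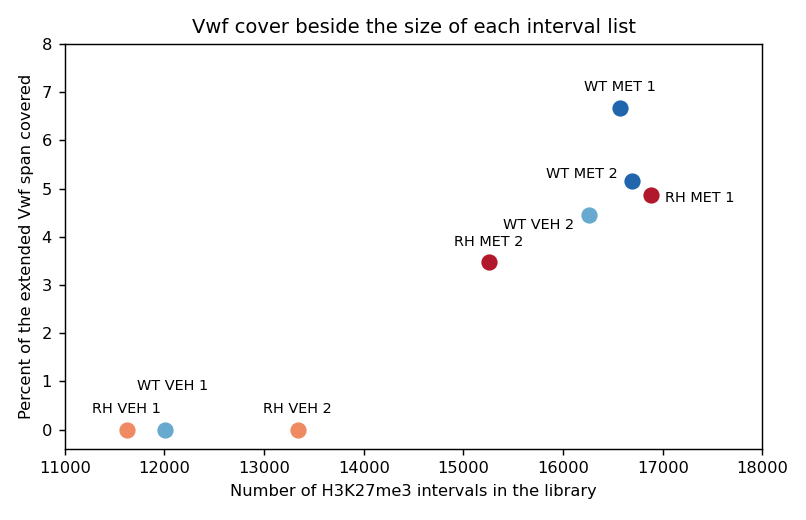
Percent of the extended Vwf span covered (vertical axis) against the number of H3K27me3 intervals in the library (horizontal axis, which does not start at 0), with 1 labelled point per library. The 3 libraries at 0 have 11620 to 13339 intervals and the 5 with cover have 15257 to 16879.

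The set of 5 libraries in which Vwf was called is shared by other genes. Of 409 protein-coding genes called in exactly 5 libraries, 42 had this set, Vwf included, or 10.3%, and a single set had more, with 44 genes. The median over the 48 sets seen was 5 genes. Among the genes with the same calls, the 5 most like Vwf by the mean absolute difference in percent covered over the 8 libraries were Abi2 (0.718 percentage points), Zdhhc17 (0.773), Armc2 (0.943), Tnfrsf11b (1.02) and Ank (1.12). Klf1 shared its single call in RH MET 2 with 98 other genes, and the most like it were Foxr1, Gm5142, Use1, 1110002E22Rik and Klrb1c, at 0.0274 to 0.0916 points.

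Other genes of the 2 lineages were split in the same manner as the 9. Of 67 further megakaryocyte, platelet and erythroid genes and transcription factors, 25 were called in all 8 libraries, 11 in some and 31 in none, which is 37.3% in all 8 against 29.8% of all protein-coding genes. The median over the genes of their mean percent covered was 0 for platelet genes, 0.507 for erythroid genes and 3.92 for the factors, against 0 over all protein-coding genes. The lists were drawn up with earlier results of these maps known, and nothing particular to the lineages is read from them. For scale, each of 15 regulators of the development of other tissues had a call in every library, and 12 of 15 housekeeping genes had no call.

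**Figure D5:**
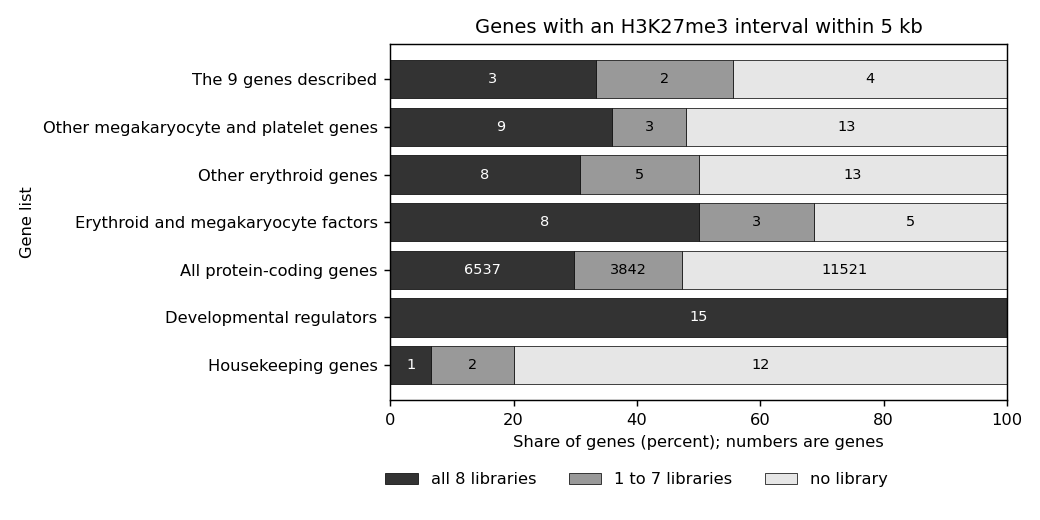
Share of genes in percent (horizontal axis) called in all 8 libraries, in 1 to 7 or in none, for the 9 genes, 3 further lists of their lineages, all 21900 protein-coding genes and 2 lists for scale, with gene counts inside the bars. The lineage lists have 30.8% to 50.0% of their genes in all 8 libraries, against 29.8% of all protein-coding genes.

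Of 25 other megakaryocyte and platelet genes, 9 were called in all 8 libraries, 3 in some and 13 in none. The 9 were Alox12, the platelet lipoxygenase, Cd9, Gp1bb, Itgb3, Mpig6b, an inhibitory receptor, Nbeal2, which is needed for alpha granules, Pdgfb, Pear1 and Thbs1, which encodes thrombospondin. Their tallest summit lay in the gene itself in every library for 7 of the 9. Mpig6b was covered over 53.7% to 76.6% and Alox12 over 43.5% to 76.0% of their extended spans. The genes without any interval included F5 and F13a1, which encode coagulation factors, Clec1b, Cd226, F2rl2, F2rl3 and P2ry1.

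Among 26 other erythroid genes, 8 were called in all 8 libraries, 5 in some and 13 in none. Ank1 and Sptb, which encode the ankyrin and beta spectrin that tie band 3 to the membrane skeleton, were covered over 16.5% to 35.2% and 11.8% to 42.9% of their extended spans. Add2 and Rhd, genes of the skeleton and of a blood group protein, were likewise called in all 8 libraries. For Hba-a1, Hba-a2, Icam4 and Trim10 the tallest summit lay outside the gene in every library, with Hbq1b, Hbq1a, Icam5 and Trim15 as the genes found under it, and the near-identical alpha globin copies make their calls uncertain. The genes with no interval included the membrane skeleton gene Epb42, the beta globin genes Hbb-bs and Hbb-bt, the heme enzyme gene Fech, Aqp1, Car1 and Hemgn.

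The transcription factors of these lineages were also of both kinds. Of 16 factors, 8 were called in all 8 libraries, 3 in some and 5 in none. Gata2, the GATA factor of stem and early progenitor cells, was covered over 72.2% to 92.9% and Tal1 over 51.2% to 75.7% of their extended spans, while Fli1, Mecom, Meis1, Sox6, Bcl11a and Zfpm1 were covered over smaller parts. The tallest summit lay in the gene in every library for Gata2, Fli1 and Sox6. For Zfpm1, Bcl11a and Meis1 it lay outside the gene in every library, in Zfp469 for Zfpm1, and for Mecom it lay inside in 1 library. With no flank, 6 of the 16 factors were called in all 8 libraries. Gata1, the GATA factor of red cell and megakaryocyte maturation, had no interval in any library, nor did Nfe2, Lmo2, Ikzf1 and Zbtb7a.

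Selp and Ldb1 were the lineage genes whose calls separated groups. Selp, which encodes P-selectin of platelet granules and endothelium, had an interval in RH MET 1 (7.15% covered, height 11) and RH MET 2 (6.26%, height 17) and in none of the 6 other libraries. Ldb1, a cofactor of Gata1 and Tal1, had the same 5 calls as Vwf, with 11.6% covered in both RH MET libraries, 10.5% and 18.3% in WT MET and 2.54% in WT VEH 2. These were 2 of 33 callable genes with an interval in each RH MET library and no RH VEH library, or 6.06%. The share was 2.76% of the 9526 protein-coding genes called in at least 1 of these 4 libraries. Selp was also the 1 of 35 callable genes with an interval in each RH MET library and no WT MET library, or 2.86%, beside 0.786% of 10045 genes.

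The position of the tallest summit set Gp5 apart from Itga2b and Slc4a1. It lay in the gene span in all 8 libraries for Gp5 and in 0 libraries for the other two. Of 6537 protein-coding genes called in all 8 libraries, 46.8% had it in the span in all 8 and 25.0% in none. A call within 5 kb thus stood for a summit in the gene at Gp5 and Vwf, and for a summit outside it at Itga2b, Slc4a1 and Klf1.

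RefSeq promoters of 250 bases were matched for 7 of the 9 genes, Pf4, Itga2b, Gp1ba, Gp5, Gp9, Klf1 and Ppbp. All 7 were poor in CpG, with 0 in Gp5, 1 in Pf4, 2 in Itga2b, Gp1ba, Gp9 and Ppbp and 3 in Klf1, against a median of 10 over 17492 protein-coding promoters. Intervals overlapped the Gp5 promoter printed above in 7 libraries, with full cover in 5, and overlapped none of the other 6 promoters in any library. Of all 17492 promoters 68.2% were overlapped in 0 libraries, and of the 5202 with 0 to 3 CpG 83.6%. Overlap in 7 or 8 libraries was found for 20.8% of all promoters and for 6.59% of those with 0 to 3 CpG. Among promoters without a CpG, 24 of 1284 (1.87%) were overlapped in 7 or 8 libraries, and among those with 10 or more CpG 2458 of 8815 (27.9%). Nothing is read from the Gp5 promoter against these shares, since the gene was chosen with the maps known and the limits follow its own values.

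In the printed sequences, GATA letters occurred 3 times in Gp5, 3 times in Gp1ba and 1 time in Klf1, and not in Itga2b. They were present in 24.3% of all 17492 promoters. Ets letters occurred 2 times in Itga2b and 1 time each in Gp5 and Gp1ba, and not in Klf1, and were present in 28.2% of all promoters. The marked Gp5 promoter and the unmarked Gp1ba promoter thus held the same number of matches of either kind. The matches are letters in these windows and were not tested as binding sites.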

How the data were processed

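H3K27me3 was measured by chromatin immunoprecipitation sequencing in 8 libraries, 2 per group, grouped by the titles in the labels. The authors deposited, per the file headers, a list of intervals and a list of summits for each library on mm10. Interval positions lie on a grid of 200 bp and were read 1-based. The summit height is a score, a whole number in the deposited lists with neither unit nor stated normalization. The submitters' processing notes name bcl2fastq 2.20, BWA 0.7.12 and mm10 without their roles. For the interval caller, its threshold and the role of the input, the sources used here give nothing. Read depth is unknown and no counting error can be set, and the number of intervals stands in for it only loosely.

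Gene spans, names and promoters came from RefSeq tables of GRCm38.p6, the assembly of mm10, in which 21900 protein-coding genes and 17492 of their promoters were used. The tables give no strand for Vwf and Slc4a1. Percent covered, calls (overlap of at least 1 bp) and the tallest summit were computed over all protein-coding genes with Python 3.11.15, pandas 2.3.3 and numpy 2.4.6. The cover function was tested on simulated data against a base-by-base count and gave the same values. No test was made, since the members were chosen from these maps and the smallest exact p for 2 libraries against 2 is 0.333.

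The members and gene lists were chosen with earlier results of these data known. All 9 members are named. Of the lineage lists, genes called in all 8 libraries, genes separating 2 groups and genes called in none are named, at most 8 of each kind and list, in alphabetical order, and a few such genes are not reported here. The ninth platelet gene called in all 8 libraries, Thbs1, and the subunit and partner genes were added with their values seen, as were the marker and X-linked genes. The 5 genes most like Vwf and Klf1 had the same calls and the smallest mean absolute difference in cover. Alternatives were no flank, a 10 kb flank, minimum heights of 15 and 20, an equal number of 11620 intervals, at least 10% of the extended span, 2500 bp around the gene start, and leaving out each library.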

Additional observations from a re-analysis of the deposited data

How the results depend on the processing

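Of 109 values recomputed under other settings, 93 moved by no more than the spread or 1.5 times, 16 moved further and 0 turned round. The call at Vwf, the 1 member that separated 2 groups, was lost (0 members) with a minimum height of 20, with at least 10% of the extended span required and around gene starts, where no value could be had for Vwf because its strand is not in the tables. The Vwf difference between RH MET and RH VEH, 4.17 points, was 0 with a minimum height of 20 and with 10% required, and the WT MET and WT VEH difference, 3.69 points, was 0 with 10% required. With an equal number of intervals both were as in the main analysis, since the cut lay below the height of each Vwf summit. Members called in all 8 libraries numbered 3, but 4 with a 10 kb flank, 1 with a minimum height of 20 and 1 around gene starts (Gp5). Around gene starts Slc4a1 had no value either, and genes without a start in the annotation count there as not called. Those called in at least 1 numbered 5, but 4 with no flank, 7 with a 10 kb flank, 4 with a minimum height of 20, 3 with 10% required and 1 around gene starts. Of 67 other lineage genes, 25 were called in all 8 libraries. That count was 19 with no flank, 27 with a 10 kb flank, 19 and 14 with minimum heights of 15 and 20, 18 with 10% required and 16 around gene starts.

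Leaving out 1 library at a time, the members separating RH MET from RH VEH numbered 1 to 2 (Klf1 was added without RH MET 1), RH MET from WT MET 0 to 1 (Klf1, without RH MET 1), RH VEH from WT VEH 0 to 1 (Vwf, without WT VEH 1) and WT MET from WT VEH 0 to 1 (Vwf, without WT VEH 2). The Vwf differences ran from 3.48 to 4.87 points in RH and 1.46 to 5.91 points in WT cells. Counts were 3 in all 8 libraries, 4 to 5 in at least 1 and 25 to 26 for the lineage genes. No paired analysis was possible because the values come from no test and shared numbers mark no shared animal or day in the labels. With 2 libraries a group and unknown depth, a missing interval does not show a missing mark.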

Other observations

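Some genes of the lists lie on the X chromosome, of which female cells silence one copy, with H3K27me3 as part of that silencing. Alas2, the erythroid enzyme that begins heme synthesis, was called in 7 libraries over at most 83.2% of its extended span, with summit heights of 9 to 14. The housekeeping genes Pgk1, called in 8 libraries with heights of 9 to 15, and Hprt, called in 3 with heights of 7 to 12, are on the same chromosome, and Gata1, also there, had no interval. Epor, the erythropoietin receptor gene on an autosome, was called in 7 libraries with heights of 19 to 112. Its extended span was covered over at most 66.6%, with 0.708% in RH VEH 2 and 0% in WT VEH 1. Whether its tallest summits lay in the gene was not determined.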
